A study of Rattus norvegicus with 8 samples.

Results

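Endothelial cells line the vessels of the brain, and 10 genes that mark these cells or their activated state were followed here in the rat medial thalamus. They comprise receptors for vascular growth factors (Kdr, Flt1 and Tek), junction and surface proteins (Cldn5 and Pecam1), a vessel matrix protein (Mmrn2), an anticoagulant receptor (Thbd) and leukocyte adhesion molecules (Vcam1, Icam1 and Selp). Members were taken by the gene name that the array design gives, of which 9 of the 10 were found. The array lists Pecam1 under its older name Pecam, so it was added through its transcript accession. The genes were selected on earlier results of these same arrays, including the difference between the groups. Together the 10 genes have 13 of the 41012 probes outside controls, and 9 of them, with 11 probes, were among the 26964 genes bright enough to test. That total is not of named genes only. The 19836 probes without a gene symbol were counted under the array's own name or, lacking that, each as a gene, and shares of all genes include them.

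The tissue came from 8 male Sprague-Dawley rats of 277 g, all under urethane anaesthesia and all fitted with an inflatable tracheal cuff. The occlusion group of 4 rats had the airway closed by the cuff for 2 to 4 breaths and opened for at least 15 breaths, again and again over 10 min, after which the brain was taken at once. In the 4 surgical controls the cuff stayed deflated and the brain was taken 70 min after setup. The rats' age, and how long the occluded rats were under anaesthesia in all, are not given in the sources used here. Each rat's RNA was labelled with Cy5 and hybridised with a Cy3-labelled pool of all 8 rats, 1 array per rat, so that each value is a log2 ratio of that rat to the pool. Values are listed for rats 1 to 4 of each group in that order. A value of 0 means the same level as the pool, and no ratio compares 1 gene's level with another's. Dyes were not swapped, and the arrays lay on 2 slides with 2 rats of each group on each slide. The number of arrays limits the precision.

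In brain, endothelial cells are sealed by tight junctions and form the blood-brain barrier together with pericytes and astrocyte endfeet. Growth factors of the VEGF and angiopoietin families keep these vessels stable through receptor tyrosine kinases on the endothelial surface. When exposed to inflammatory cytokines, endothelial cells display adhesion molecules that catch leukocytes and lose part of their anticoagulant surface. The members therefore cover both the resting identity of the cell and its response to such signals.

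The tissue label was checked first, because bulk tissue mixes cell types. Defining endothelial transcripts were measured in all rats: Cdh5, the cadherin of endothelial junctions, was well above background on 8 of 8 arrays, as were Esam and Emcn. Occlusion minus control was -0.04 for Cdh5, -0.06 for Esam and -0.18 for Emcn, with standard errors of 0.08, 0.07 and 0.18. Without control 3 it was -0.03, -0.01 and -0.17. Over the rats, ratios lay between -0.09 and 0.20 for Cdh5, between -0.21 and 0.03 for Esam, and between -0.38 and 0.41 for Emcn, so these transcripts differed in how far they varied. Control 3, in contrast, stood apart in brain region markers. Its mean log2 ratio over 14 thalamic relay neuron markers was -1.78, against -0.24 to 0.19 in the other 7 rats, and over 13 cortex markers it was 1.44, against -0.81 to -0.26. Meningeal and fibroblast markers, 15 in number, averaged 0.93 in control 3 and between -0.49 and 0.09 elsewhere. Group differences of the tested members and of the lists are therefore also given without that rat. With all rats, 14 of 14 relay markers (median 0.34) and 3 of 13 cortex markers (median -0.34) were higher under occlusion. Without control 3 the counts were 3 of 14 (median -0.12) and 12 of 13 (median 0.11). Cortex means then lay at -0.70 to -0.26 under occlusion and -0.81 to -0.76 in controls. Leaving out control 3 thus did not make the groups alike in cortex markers. In such bulk samples, fewer cells of a type and less RNA per cell cannot be told apart.

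Across all genes, 0 of 26964 passed an adjusted p under 0.05 between occlusion and control (limma, Benjamini-Hochberg), and 842 (3.12%) had an unadjusted p under 0.05. The smallest adjusted p of any gene was 0.974. The share called was thus 0%, and no member was called. The members had been proposed with this contrast in view, so their differences are given as a description and carry no test of their own.

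Kdr, the main signalling receptor for VEGF on endothelium, was read by a bright probe whose position on rn3 the design does not list. Its log2 ratios were 0.07, -0.09, 0.12 and 0.34 under occlusion and -0.30, -0.16, 0.46 and -0.22 in controls. Control 3 was the highest of all 8 rats and the other controls were the lowest 3. The group means were 0.11 ± 0.18 (SD, n = 4) and -0.06 ± 0.35 (SD, n = 4), a difference of 0.17 with a standard error of 0.17. Without control 3 the difference was 0.34 with a standard error of 0.10, and the groups no longer overlapped. It was -0.13 on slide 1, which holds control 3, and 0.46 on slide 2. The pool's Cy3 signal for Kdr varied little from array to array (coefficient of variation 2.48%), whereas the rats' Cy5 signal ran from 1912 to 3989 intensity units (22.5%).

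Flt1, the other VEGF receptor and a decoy for the ligand in its soluble form, was dim. Its probe at chr12:8065567-8065626 (rn3) had log2 ratios of 0.08, -0.07, -0.04 and -0.07 under occlusion and -0.06, -0.07, 0.03 and 0.04 in controls. All 8 values lay near 0, and the groups overlapped, with a difference of -0.01, or 0.01 without control 3. The other Flt1 probe is placed at chr12:7954639-7971736, a span of 17098 bases that is longer than the 60 bases of most probes here. It gave -0.20, 0.21, 0.03 and 0.01 under occlusion and 0.05, -0.13, -0.03 and -0.09 in controls, a difference of 0.07 with and without control 3. On the array of occlusion 1 this spot was bright in both dyes, with a pool signal of 211 against 86 to 95 on the other 7 arrays, though the same pool was on every array. This probe was taken as the gene's brightest by mean intensity over the arrays, that of occlusion 1 included. Its median signals were lower, at 112 units in Cy5 and 92 in Cy3, against 117 and 98 for the other probe. The 2 Flt1 probes had the same sign in only 1 of 8 rats, so Flt1 has no firm order of animals.

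Tek (Tie2), the receptor for angiopoietins, was measured by its probe at chr5:115183802-115183861 (rn3), with a Cy5 signal of 87 to 136 units. Ratios were 0.01, 0.08, -0.01 and -0.09 under occlusion and -0.12, 0.01, -0.16 and -0.05 in controls. The groups overlapped and their means differed by 0.08 with a standard error of 0.07, or by 0.05 without control 3. A further probe, at chr5:115105409-115105873, was not well above background on any array in either dye and was not tested. Of the 3 receptors, Kdr had the widest spread between animals and Tek the narrowest on the brightest probe.

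Cldn5, the tight junction claudin of brain endothelium, gave a strong signal of 6895 to 10813 units. Its probe lies on the unplaced rn3 sequence chr11_random:1224740-1224799. Log2 ratios were -0.47, -0.03, -0.01 and 0.04 under occlusion and 0.04, -0.24, -0.39 and -0.22 in controls. Occlusion 1 and control 3 were the 2 lowest rats, 1 in each group, and the groups overlapped. The means were -0.12 ± 0.24 (SD, n = 4) and -0.20 ± 0.18 (SD, n = 4), and their difference of 0.09 with a standard error of 0.13 became 0.02 without control 3 and 0.20 without occlusion 1.

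Pecam1 (CD31), a homophilic adhesion molecule of endothelium, platelets and leukocytes, was the dimmest member tested. Its probe, at chr10:96072087-96072146 (rn3), was well above background in Cy5 on 6 of 8 arrays, and in Cy3 on 0 of 8, so the denominator of its ratio is near background. The ratios were -0.05, -0.19, -0.02 and 0.09 under occlusion and -0.23, -0.21, 0.03 and 0.12 in controls. The groups overlapped over nearly their whole range, with a difference of 0.03 and a standard error of 0.10, or of 0.07 without control 3. That difference was -0.20 on slide 1 and 0.26 on slide 2. The direction for Pecam1 was also negative without background correction, on the scanner software's ratios, and without occlusion 4, control 1 or control 2.

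Mmrn2 (multimerin 2), an endothelial matrix glycoprotein that binds the surface lectins Cd93 and Clec14a, has 2 probes close together on chromosome 16. The brighter, at chr16:10052102-10052161 (rn3), gave 0.11, 0.12, 0.23 and 0.24 under occlusion and -0.02, -0.28, -0.12 and -0.06 in controls. Every occluded rat lay above every control, and control 3 lay among the other controls. The means were 0.18 ± 0.07 (SD, n = 4) and -0.12 ± 0.11 (SD, n = 4), so that the difference was 0.29 with a standard error of 0.08, a ratio of 1.23, and it was 0.29 without control 3 as well. It was 0.20 on slide 1 and 0.39 on slide 2. The dimmer probe, at chr16:10051452-10051511, gave -0.03, -0.05, 0.00 and 0.11 under occlusion and -0.06, 0.10, -0.03 and -0.08 in controls. On that probe the groups overlapped and the difference was 0.02 with a standard error of 0.07, and 0.02 without control 3. Before normalisation the Cy5 signal of the brighter probe was 1733, 1759, 1550 and 1654 units under occlusion and 1242, 1367, 1659 and 1718 in controls, which overlap. Both probes were well above background in both dyes on 8 of 8 arrays, with median Cy5 signals of 1656 and 362 units. The separation seen with the brighter probe was therefore not shared by the other probe of the gene.

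**Figure D1:**
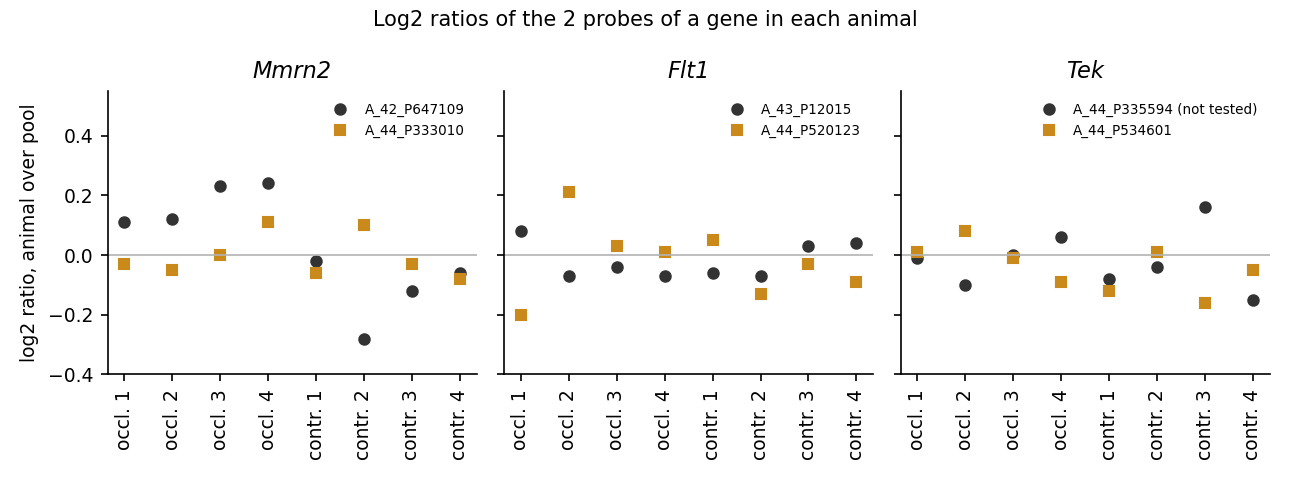
Log2 ratio of each animal to the pool (vertical axis) for both probes of Mmrn2, Flt1 and Tek, with the 4 occluded rats to the left and the 4 controls to the right in each panel. The probes of a gene did not order the animals alike: for Mmrn2 1 probe has a group difference of 0.29 and the other 0.02, and for Flt1 the signs agree in 1 of 8 rats.

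Probe agreement was described over the 8 rats. For Mmrn2 the signs matched in 5 of 8 rats and for Tek, where 1 probe is at background, in 3 of 8. The brighter Mmrn2 probe had a spread of 0.18 over the 8 rats (SD) and the dimmer 0.07. Which transcripts each probe reads was not tested.

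Thbd (thrombomodulin) binds thrombin on the endothelial surface and turns it towards activation of protein C, an anticoagulant. It had the widest range among the members. Its probe at chr3:137064542-137064601 (rn3) gave log2 ratios of 0.32, 0.34, 0.07 and 0.20 under occlusion and -0.83, -0.62, 0.60 and -0.32 in controls. All occluded rats were above the pool, 3 controls were below it, and control 3 was the highest of all. The means were 0.23 ± 0.13 (SD, n = 4) and -0.29 ± 0.63 (SD, n = 4), and the difference of 0.52 had a standard error of 0.27. Without control 3 the controls averaged -0.59 ± 0.26 (SD, n = 3), and the difference was 0.82 with a standard error of 0.12, a ratio of 1.77. On slide 1 the difference was 0.19 and on slide 2 it was 0.86.

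The Thbd range was visible in the unnormalised signals. Cy5 minus background was 626, 720, 462 and 494 units in the occluded rats and 215, 263, 850 and 441 in controls, a coefficient of variation of 42.6%. The pool's signal at the same spots ran only from 266 to 316 units (5.12%). Meningeal and fibroblast markers were 0.93 in control 3 and at most 0.09 elsewhere, so they moved with the high Thbd value of that rat. In these markers the occluded rats (-0.47 to 0.09) overlapped with controls 1, 2 and 4 (-0.49 to -0.39), which they did not in Thbd. Without control 3, 12 of the 15 markers were higher under occlusion (median 0.18), the same direction as Thbd, against 1 of 15 with it (median -0.11). Cortex markers had the order seen in Thbd: 1.44 in control 3, -0.70 to -0.26 under occlusion, and -0.81 to -0.76 in controls 1, 2 and 4. The part of either list in the Thbd values was not tested.

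Vcam1 is the endothelial ligand of the leukocyte integrin VLA-4 and is induced by cytokines. It is also made by choroid plexus epithelium. Its probe at chr2:212240449-212240508 (rn3) was bright, at 6285 to 9936 units, and gave ratios of -0.10, 0.06, 0.26 and 0.30 under occlusion and -0.22, -0.27, 0.04 and -0.19 in controls. Only control 3 among the controls was above 0, and it was also above occlusion 1. The means were 0.13 ± 0.19 (SD, n = 4) and -0.16 ± 0.14 (SD, n = 4), a difference of 0.29 with a standard error of 0.11. Without control 3 it was 0.36 with a standard error of 0.10, and the groups did not overlap. Slide 1 gave 0.05 and slide 2 gave 0.52. Choroid plexus and ependyma markers, 14 in number, averaged 0.00, -0.10, 0.59 and -0.46 under occlusion and -0.50, -0.55, -1.30 and -0.63 in controls, and all 14 were higher under occlusion (median difference 0.73, or 0.43 without control 3). Every occluded rat thus had a higher mean of these markers than every control, though by a narrow gap (-0.46 in occlusion 4, -0.50 in control 1). Within the groups the order differed from Vcam1. Occlusion 4 and control 3 were the highest of their groups in Vcam1 and the lowest in these markers. The part of these markers in the Vcam1 values was not tested.

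Icam1, the ligand of the leukocyte integrins LFA-1 and Mac-1, is printed as 10 spots of 1 probe, at chr8:20051730-20051789 (rn3), on each array. Its mean ratios were -0.22, 0.23, 0.06 and 0.15 under occlusion and -0.34, -0.22, 0.41 and -0.28 in controls. Control 3 was again the highest rat, controls 1 and 4 were the lowest, and occlusion 1 lay level with control 2. The difference was 0.16 with a standard error of 0.17, and 0.33 with a standard error of 0.11 without control 3. It was -0.06 on slide 1 and 0.38 on slide 2. The repeated spots show how far the reading itself varies. In occlusion 2 the 10 spots ran from 0.18 to 0.31 and in control 3 from 0.33 to 0.50, whereas in control 4 the 9 spots used ran from -0.38 to -0.07. The SD between spots of an array, pooled over the 8 arrays, was 0.08, and the SD between animals of a group was 0.28, or 3.56 times as large. This ratio leans on control 3. The SD of the controls was 0.35 with that rat and 0.06 without it, below the spot SD, and that of the occluded rats was 0.20. Spots of an array share labelling and hybridisation, so this ratio covers the reading of the spots and not those steps.

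Selp (P-selectin), a receptor stored in endothelial granules and platelets, was not measurable. Its probe at chr13:79936266-79936325 (rn3) was not well above background in Cy5 or in Cy3 on any of 8 arrays. It was left out of the test, and its ratios, between -0.10 and 0.04, carry no order. With Selp and the untested Tek probe set aside, the members that remain are those that the plot of members by animal shows.

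**Figure D2:**
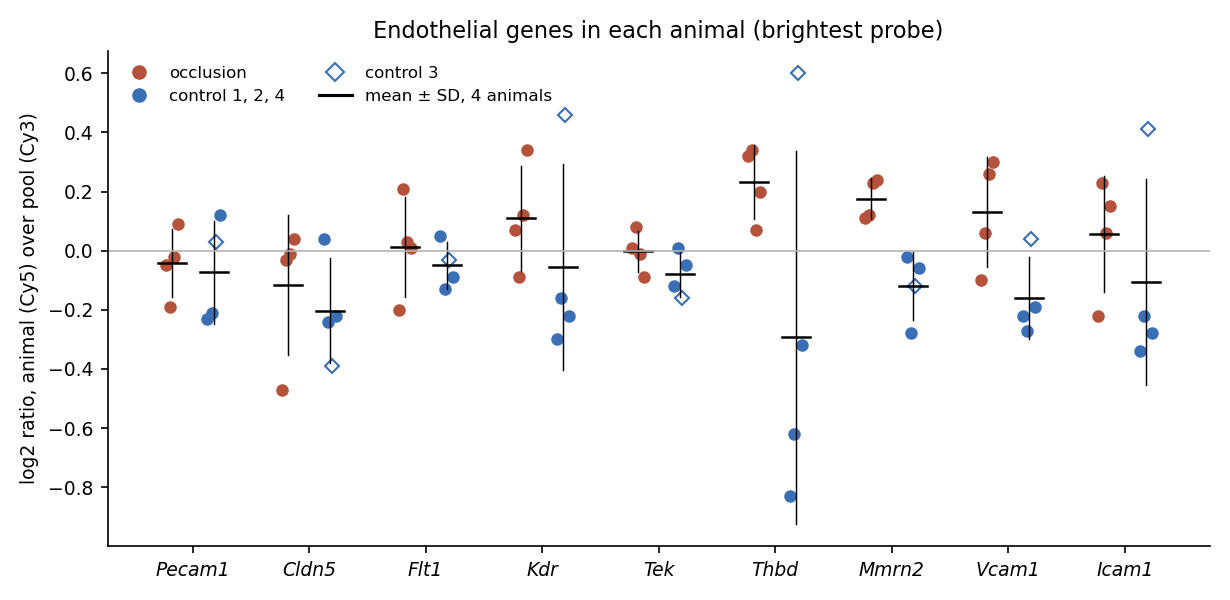
Log2 ratio of animal to pool (vertical axis) for the brightest probe of each tested gene; points are rats, the open diamond is control 3, and bars give the mean ± SD of 4 rats. Mmrn2 is the gene whose groups do not overlap, and control 3 lies above the other controls for Kdr (0.46), Thbd (0.60), Vcam1 (0.04) and Icam1 (0.41).

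The promoters of Vcam1, Icam1 and Kdr are shown because these genes had an r of 0.72 to 0.80 with each other over the rats and the RefSeq promoter table (GRCr8) holds them. Cytokine induction of Vcam1 and Icam1 is classically tied to NF-kappaB sites near the start of transcription. The letters GGNNNTTCC, a simple form of such a site, were searched on both strands of the 250 bases before each start. Matches are in capitals, and each sequence reads 5′ to 3′ towards the start of the gene.
Vcam1, chr2:206742784-206743033, minus strand: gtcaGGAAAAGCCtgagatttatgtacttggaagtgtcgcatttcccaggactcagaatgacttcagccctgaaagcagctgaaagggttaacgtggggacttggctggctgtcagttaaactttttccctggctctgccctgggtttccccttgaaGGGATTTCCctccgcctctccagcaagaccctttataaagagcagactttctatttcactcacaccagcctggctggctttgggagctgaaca
Icam1, chr8:27829595-27829844, plus strand: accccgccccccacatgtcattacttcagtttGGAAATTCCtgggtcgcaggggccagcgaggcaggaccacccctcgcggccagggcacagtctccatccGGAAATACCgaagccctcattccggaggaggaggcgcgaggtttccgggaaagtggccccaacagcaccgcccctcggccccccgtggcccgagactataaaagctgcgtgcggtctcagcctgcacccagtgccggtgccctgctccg
Kdr, chr14:32571813-32572062, plus strand: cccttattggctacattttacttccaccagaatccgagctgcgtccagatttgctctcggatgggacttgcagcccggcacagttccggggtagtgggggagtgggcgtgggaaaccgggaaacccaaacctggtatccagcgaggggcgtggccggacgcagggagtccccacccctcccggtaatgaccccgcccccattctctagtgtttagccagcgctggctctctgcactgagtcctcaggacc

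Vcam1 held the letters at 2 places, GGGATTTCC on the coding strand 93 to 85 bases before the start and GGAAAAGCC, a match on the opposite strand, 246 to 238 bases before it. Icam1 also held them at 2 places: GGAAATTCC, which matches on both strands, 218 to 210 bases before the start, and GGAAATACC, on the opposite strand, 149 to 141 bases before it. In Kdr these letters were not in the window, nor in those of Cldn5, Flt1 and Mmrn2, the other members in the table. Of all 33469 promoters of that length, 15.4% held the letters. A match describes the sequence and does not show that a factor binds there.

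Set against the whole array, all 9 tested members had a difference above 0, where 50.2% of the 26964 genes did. For Flt1 this rests on the probe whose spot was aberrant in occlusion 1, and the other Flt1 probe differed by -0.01. The groups did not overlap for 1 of the 9, Mmrn2, against 2.54% of all genes in either direction and 1.19% with occlusion higher. Without control 3 all 9 were again above 0 (49.7% of all genes). The groups were then separated for 4 of 9, Kdr, Thbd, Mmrn2 and Vcam1, against 2.87% of genes with occlusion higher. Nothing is read from these shares, since the contrast itself had been seen when the genes were proposed. The adjusted p of the members ran from 0.974 to 0.987 in the limma fit, and without control 3 the smallest was 0.917. On slide 1 alone 6 of the 9 differences were above 0 and on slide 2 alone 9 of 9 were.

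**Figure D3:**
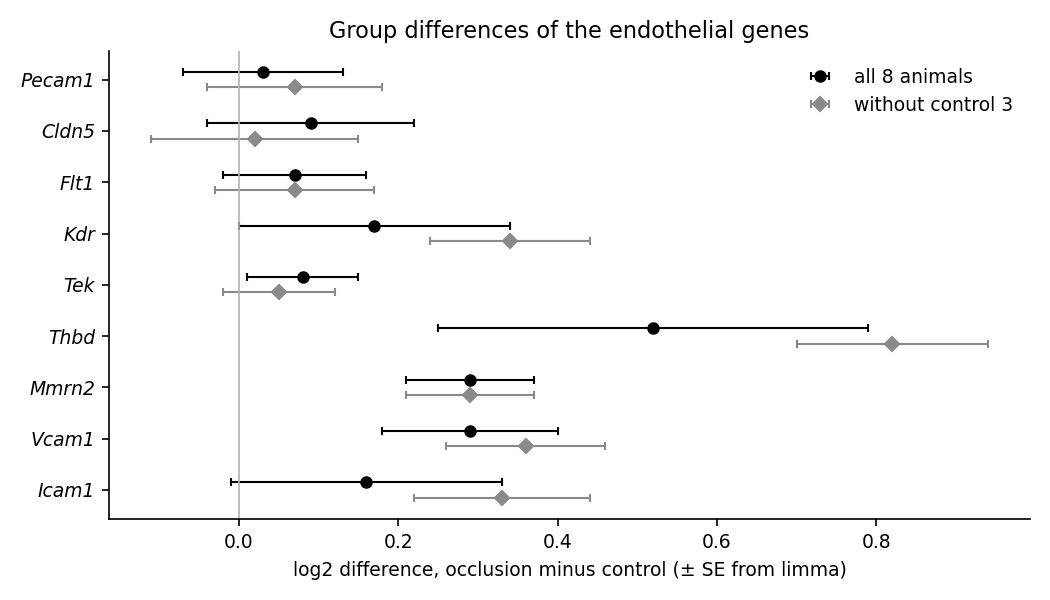
Log2 difference of occlusion minus control (horizontal axis) with its standard error from limma for the 9 tested genes, over all 8 rats (black circles) and without control 3 (grey diamonds). Thbd moves from 0.52 to 0.82, Kdr from 0.17 to 0.34 and Icam1 from 0.16 to 0.33, whereas Mmrn2 stays at 0.29.

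How the members varied together from rat to rat is given as a description. The genes were selected on these arrays, and r over all rats contains the group difference, so the p-values below are no independent evidence. Over the 36 pairs of the 9 genes, Pearson's r was above 0 in 27, with a median of 0.32, and in 29 without control 3. By exact permutation of the pairings (two-sided), 5 pairs had an unadjusted p under 0.05 and 0 had an adjusted p under 0.05 over the 36 pairs; the smallest adjusted p was 0.195 for Pearson's r and 0.261 for Spearman's rho.

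The pairs with the highest r joined Kdr, Thbd and Icam1. Thbd and Icam1 had r = 0.81 (exact permutation p = 0.0189, adjusted 0.195) and rho = 0.81 (p = 0.0218), and r = 0.74 without controls 1 and 2, the rats farthest from the median of Thbd. Kdr and Thbd had r = 0.80 (exact permutation p = 0.0196, adjusted 0.195) and rho = 0.76 (p = 0.0368), and r = 0.78 without occlusion 4 and control 3. For Kdr and Icam1 r was 0.80 (exact permutation p = 0.0203, adjusted 0.195) and rho 0.81 (p = 0.0218), but r was 0.52 without occlusion 4 and control 3, so that this relation leans on those rats. Taken as deviations from the group means, with control 3 kept, the same pairs had r of 0.80, 0.79 and 0.77, nearly as large as over all rats. Control 3 is the highest rat in all 3 genes. Without it, but with the group difference kept, r was 0.73, 0.72 and 0.65. No r was taken with both control 3 and the group difference removed. The values therefore do not show that these 3 genes vary together within groups beyond control 3.

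A different pair was formed by Mmrn2 and Vcam1, with r = 0.79 (exact permutation p = 0.0217, adjusted 0.195) and rho = 0.83 (p = 0.0154). Without occlusion 4 and control 2 r was 0.61, and as deviations from the group means it was 0.50. Cldn5 went with Flt1, at r = 0.72 (exact permutation p = 0.0396, adjusted 0.267) and rho = 0.71 (p = 0.0576). That relation uses the Flt1 probe whose spot was aberrant in occlusion 1, the rat with the lowest value in both genes. Without occlusion 1 and control 3 it was r = 0.69. Each slide holds only 4 rats, too few for a correlation within a slide.

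The count of pairs past the threshold depended on single rats. Without occlusion 1, Thbd and Icam1 had r = 0.96 over 7 rats (exact permutation p = 0.00119, adjusted 0.0429), and without occlusion 2, Kdr and Icam1 had r = 0.94 (exact permutation p = 0.000397, adjusted 0.0143). By Spearman's rho the adjusted p was 0.10 in both cases. Leaving out any of the other 6 rats gave 0 pairs past the threshold.

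**Figure D4:**
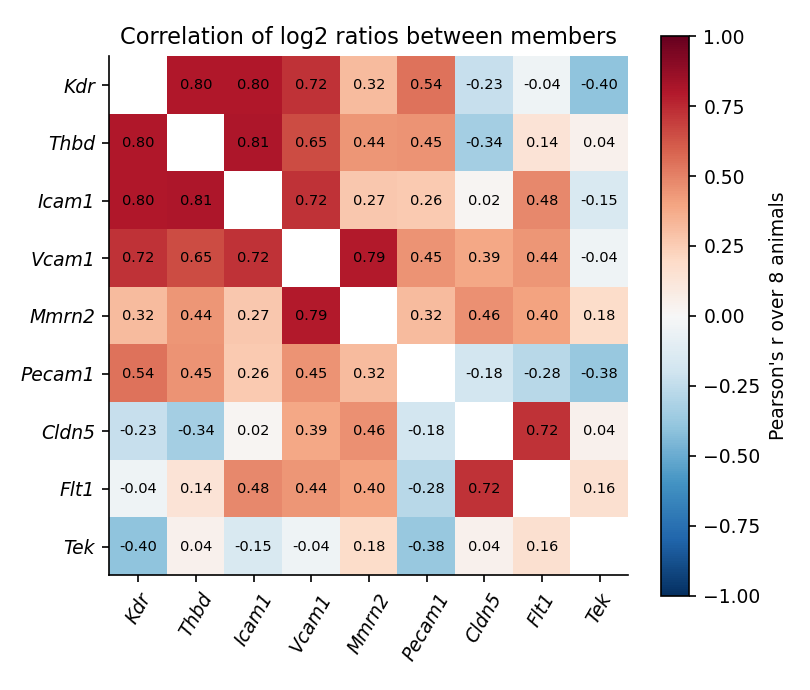
Pearson's r over 8 rats between the log2 ratios of each pair of the 9 tested genes (brightest probe), from -1 (blue) to 1 (red). Kdr, Thbd, Icam1 and Vcam1 form a block with r from 0.65 to 0.81, and Cldn5 with Flt1 (0.72) stands outside it.

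Among the endothelial identity genes, r was -0.23 for Cldn5 and Kdr, -0.18 for Cldn5 and Pecam1 and -0.40 for Kdr and Tek. The members thus did not all order the 8 rats alike. The mean over the 9 genes was -0.06, 0.08, 0.08 and 0.14 under occlusion and -0.22, -0.24, 0.09 and -0.15 in controls. Among 13060 other named genes measured on all arrays, those most like this mean over 8 rats were Rpl14 (r = 0.92), Exoc3l2 (0.92), Nup214 (0.91), Atad5 (0.90) and Bcl3 (0.90). Spearman's rho was 0.90, 0.76, 0.86, 0.88 and 0.60 in the same order. They are the highest of 13060 values over only 8 rats, so r this high may arise by chance. The members' mean also contains the group difference. All of these ratios share the same arrays and the same pool.

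Other genes of the same pathways were followed in fixed lists, none of whose members passed the adjusted threshold. Among ligands, receptors and modulators of VEGF, angiopoietin and Notch signalling, 13 of 16 tested were higher under occlusion and 3 lower, with a median difference of 0.09, and 9 of 16 were higher without control 3 (median 0.02). All genes together had a median of 8e-04. Vegfc differed by 0.29 with a standard error of 0.16, and by 0.17 without control 3 (-0.54). Ptprb, the phosphatase that restrains Tek, differed by 0.27 with a standard error of 0.17, and by 0.36 without that rat. Junction and surface genes were higher for 11 of 18 (median 0.04), or for 10 of 18 without control 3 (median 0.01), with F11r at 0.11 and Gja4, a gap junction connexin, at 0.13. Blood-brain barrier transporters were higher for 11 of 18 as well, or for 10 of 18 without control 3, with a median of 0.01 either way. Slc2a1, the barrier's glucose transporter, differed by 0.26 with a standard error of 0.11, and Mfsd2a, its lipid transporter, by 0.33 with a standard error of 0.15. Without control 3 they differed by 0.21 and 0.23.

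Endothelial transcription factors were higher for 12 of 16 (median 0.05), but for 8 of 16 without control 3 (median -0.01). Nr2f2, a factor of venous identity, differed by 0.79 with a standard error of 0.32 and was -1.43 in control 3; without that rat it differed by 0.51. Ets1 differed by 0.21, and by 0.28 without that rat. Matrix genes and partners of Mmrn2 were split, 7 higher and 8 lower of 15 (median -0.02), and without control 3 9 of 15 were higher (median 0.03), so the sign of the median turned. Lama5 differed by 0.23 and Emilin2 by 0.15, but by 0.12 and 0.09 without control 3, which was at -0.63 and -0.43. The Mmrn2 ligands Cd93 and Clec14a, named here after their values were seen, differed by 0.19 with a standard error of 0.15 and by 0.10 with a standard error of 0.11. Without control 3 these were 0.19 and 0.03.

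For the pathways around Thbd, Vcam1 and Icam1, 11 of 14 genes of thrombosis, protein C and fibrinolysis were higher, with a median of 0.04, and 11 of 14 without control 3 (median 0.02). The mean of that list was -0.01 to 0.03 under occlusion and -0.08 to -0.06 in controls, so the groups did not overlap, though by a narrow gap. Ece1, which makes active endothelin, differed by 0.38 with a standard error of 0.16, and Nos3 by 0.13. Without control 3, which was at -0.96 and -0.30, they differed by 0.23 and 0.05. Procr, the endothelial receptor for protein C and so the nearest partner of Thbd, differed by 0.09 with a standard error of 0.14, and by 0.03 without control 3 (named after its value was seen). Leukocyte integrins and other adhesion partners were higher for 4 of 10 with control 3 (median -0.03) and without it (median -0.01). Itgb7 differed by 0.19 and Glycam1 by 0.28, or by 0.14 and 0.32 without that rat.

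Genes of the cytokine response were higher for 11 of 15 with a median of 0.10, and for 12 of 15 with a median of 0.09 without control 3. Their mean ratio was 0.03 to 0.12 in the occluded rats, -0.23, -0.22 and -0.20 in controls 1, 2 and 4, and 0.18 in control 3. As for Thbd and for the cortex markers, controls 1, 2 and 4 were the lowest rats and control 3 lay above all occluded rats. The occluded rats themselves were ordered differently from Thbd, with occlusion 3 highest here and lowest there. Bcl3, an NF-kappaB cofactor, differed by 0.86 with a standard error of 0.22 and was 0.20 in control 3, and Tnfrsf1a differed by 0.43 with a standard error of 0.07 and was -0.29 there. Without control 3 these differences were 1.1 and 0.43. Bcl3 was the 1 gene of the array with an adjusted p under 0.05 when control 3 was left out (limma), which is 0.00371% of the genes tested.

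**Figure D5:**
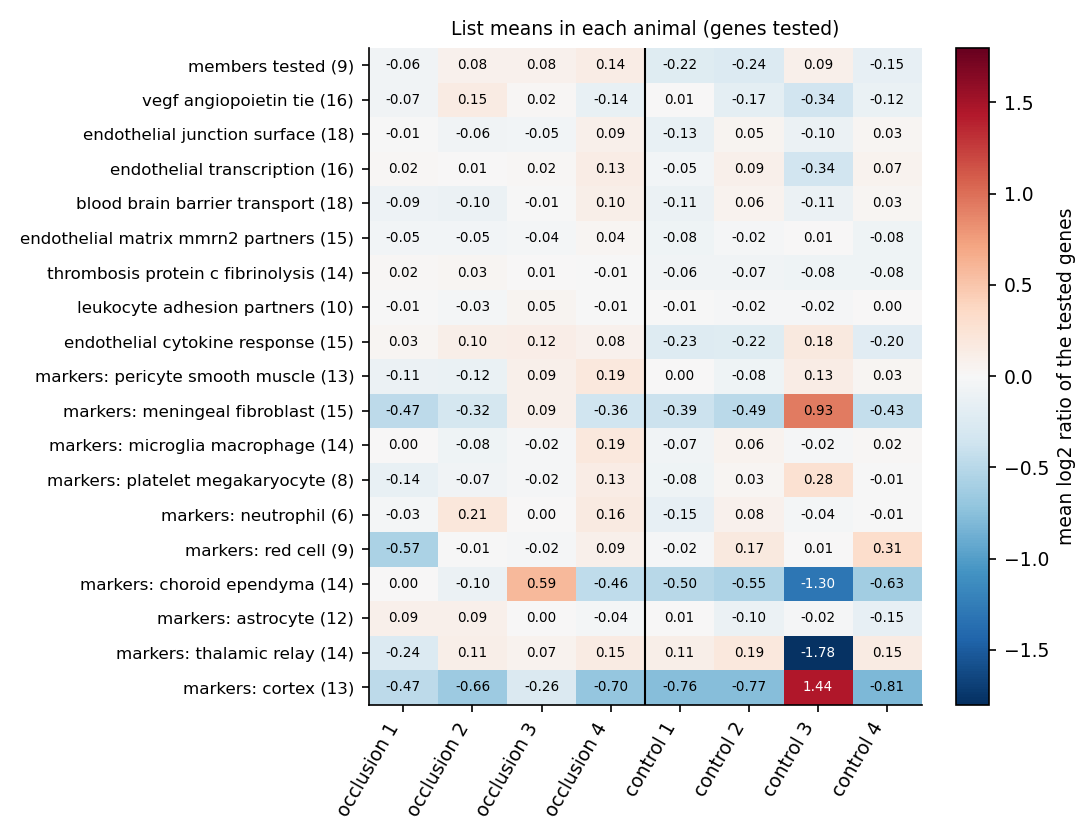
Mean log2 ratio of the tested genes of each list (rows, number of genes in brackets) in each rat (columns; occlusion left of the line, control right), coloured from blue (below the pool) to red (above). Control 3 stands out for relay (-1.78), cortex (1.44) and meningeal (0.93) markers. The lists of endothelial pathways lie between -0.34 and 0.18, and both of these ends are values of control 3.

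Markers of cells that touch vessels or carry the same adhesion molecules were also followed. Pericyte and smooth muscle markers were higher for 5 of 13 (median -0.03), and their means ran from -0.12 to 0.19 under occlusion and from -0.08 to 0.13 in controls. Microglia and macrophage markers were higher for 9 of 14 (median 0.04), with means of -0.08 to 0.19 and -0.07 to 0.06. Platelet markers, relevant to Pecam1 and Selp, were higher for 2 of 8 (median -0.12) and highest in control 3, at 0.28. Neutrophil markers were higher for 6 of 6 (median 0.11) and red cell markers for 0 of 9 (median -0.11), with a red cell mean of -0.57 in occlusion 1. Astrocyte markers were higher for 7 of 12 (median 0.10). Without control 3, the count higher was 7 of 13 for pericyte (median 0.01), 9 of 14 for microglia (0.03) and 3 of 8 for platelet markers (0.00). It was 5 of 6 for neutrophil (0.14), 0 of 9 for red cell (-0.18) and 9 of 12 for astrocyte markers (0.09). In none of these 6 lists did the group ranges stand apart, and their part in the members' values was not tested.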

How the data were processed

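RNA of 8 rats was read on 2-colour Agilent arrays. Per the file headers, the authors' deposited scanner files were made with Feature Extraction 9.5.1.1 and hold spot intensity (mean signal and median local background) and a log10 ratio of Cy5 over Cy3. The deposited value table repeats that log10 ratio: 45018 of 45018 spots matched within 1% on each array. Each column's median is 0, and how its ratios were centred stays unknown. The direction follows from the dyes in the labels.

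Intensities were corrected by normexp (offset 50) and loess within arrays in limma 3.58.1 (R 4.3.3), with control and outlier spots at weight 0, and spots of the same probe were averaged. A probe was kept if its Cy5 signal was well above background on 4 or more arrays and each group had at least 2 values, and a gene was taken as its brightest probe. Occlusion was compared with control by lmFit and eBayes (two-sided, Benjamini-Hochberg over all genes). Fits and correlations were tested on simulated data. Names came from the RefSeq table of GRCr8, and 21176 of 41012 probes received a symbol. Of the arrays' spots, 68.3% to 80.2% were well above background in Cy5, and the lowest correlation between arrays was -0.15.

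The members and lists were chosen with earlier results of these data known. Named genes are all members, in every pathway list the 2 genes of lowest unadjusted p, and the 5 most like the members' mean. Genes given otherwise are marked or serve the check of the tissue. Same-numbered rats of the groups share only a number (correlations of deviations -0.13, 0.14, 0.03 and 0.08). Alternatives covered background, normalisation, the deposited ratio, the filter, the choice among probes, weights for arrays, slide, replicate number and each rat left out. Figures were drawn with matplotlib 3.10.9.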

Additional observations from a re-analysis of the deposited data

Results flagged for a closer look

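Values were checked for a rat lying far from the rest of its group relative to the group's range, and 10 of 71 such checks met the criterion, where chance gives about 1 in 20. Among the members, Cldn5 was -0.47 in occlusion 1 and Icam1 was 0.41 in control 3, each far from the other 3 rats of its group. The Cy3 pool signal of the Flt1 probe A_44_P520123 was 211 on the array of occlusion 1, although the pool was the same on all 8 arrays.

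Among list means, control 3 stood apart at 0.18 for the cytokine response, 0.93 for meningeal and fibroblast markers, -1.30 for choroid plexus and ependyma markers, -1.78 for thalamic relay markers and 1.44 for cortex markers. Occlusion 4 stood apart at 0.13 for endothelial transcription factors and at 0.04 for matrix genes and partners of Mmrn2. Both are small and lie apart only because the other 3 occluded rats were close together.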

How the results depend on the processing

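The number of genes past the threshold between occlusion and control was 0 in each of 11 alternatives of processing and design, including the replicate block, which gave 0 and changed no other call, and it ran from 0 to 1 with each rat left out. The value of 1 came without control 3. The number of correlated pairs of members was 0 in each of the 4 alternatives of processing and ran from 0 to 1 with each rat left out; the values of 1 came without occlusion 1 and without occlusion 2. The differences of Cldn5, Thbd, Mmrn2 and Vcam1 kept their sign in all 19 alternatives. Those of Flt1 and Tek did so only before rounding, as Flt1 was 0.00 without occlusion 2 and Tek 0.00 on slide 2 alone. Those of Kdr and Icam1 kept their sign in 18, with slide 1 alone as the exception, and that of Pecam1 in 12 of 18. Thbd ranged from 0.19 to 0.86, Vcam1 from 0.05 to 0.52 and Kdr from -0.13 to 0.46, with slide 1 and slide 2 alone as the ends, and Mmrn2 fell to 0.16 as the mean of its probes. Over the members and the list medians, 474 values moved by less than the spread between replicates and 38 by more, most often with 1 slide alone. Pecam1 has no value when probes must be well above background on all 8 arrays. Signal near background limits Pecam1, Flt1 and Tek, and Selp could not be read.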

Other observations

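Values of 3 further genes of endothelium, chosen after their values were seen, are given for rats 1 to 4 of each group. Slco1c1, a thyroid hormone transporter of brain endothelium, was -0.51, -0.74, 0.02 and 0.43 under occlusion and -0.40, 0.32, 0.14 and 0.25 in controls. Emcn, an endothelial sialomucin, was -0.20, -0.38, -0.03 and 0.41 under occlusion and -0.21, 0.31, 0.15 and 0.27 in controls. Occlusion 1, occlusion 2 and control 1 were the 3 lowest rats for both genes. Thbd in the same 3 rats was 0.32, 0.34 and -0.83, and its highest value, 0.60, was in control 3. A relation of these genes to Thbd was not tested. Foxc1, a transcription factor of endothelium, pericytes and meninges, was 0.09, 0.28, -0.01 and 0.11 under occlusion and -0.70, -0.31, 0.48 and -0.42 in controls, with control 3 highest as for Thbd. No test was run on these values.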
